A study of Homo sapiens with 7 samples.

Results

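The BCL2 family decides whether a stressed cell opens its mitochondrial outer membrane and dies by apoptosis. Levels of 10 of its genes were followed in RH30 cells with and without the Smac mimetic BV6. The 10 were taken by name from a count table of 57189 genes: the anti-apoptotic BCL2, BCL2L1 (BCL-XL), MCL1 and BCL2A1 (BFL1), the effectors BAX and BAK1, and the BH3-only genes BID, BCL2L11 (BIM), BBC3 (PUMA) and PMAIP1 (NOXA). RH30 is an established line of alveolar rhabdomyosarcoma, a tumor of the skeletal muscle lineage. The labels give its genotype as wild type, and per the study's methods the RH30 cells it used expressed GFP and luciferase. BV6 is a compound that acts like Smac, a mitochondrial antagonist of the IAPs. RNA was sequenced in bulk from 4 untreated samples and from 3 samples given 5 µM BV6 for 24 h. The BV6 samples, replicates 2, 3 and 4, carry the labels BC13, BC14 and BC25/27, which untreated replicates 2, 3 and 4 carry as well, while untreated replicate 1 (BC11) has no partner. Total counts were 77220882, 56684781, 59849682 and 62049652 for untreated replicates 1 to 4, against 57464589, 59465798 and 54070030 for BV6 replicates 2 to 4. Levels are given as CPM, the usual depth-scaled counts, with TMM-normalized library sizes. The study describes its replicates as biological, and p-values measure the spread between these samples.

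In healthy and malignant cells, anti-apoptotic members hold BAX and BAK1 in check and bind BH3-only proteins in a groove on their surface. BH3-only proteins are made or activated upon stress and either occupy that groove or activate BAX and BAK1 directly, which then form pores that release cytochrome c and Smac. NOXA binds mainly MCL1, whereas BIM and PUMA bind all major anti-apoptotic members. BID links death receptors to mitochondria after cleavage by caspase-8. Much of this control acts on the proteins, which RNA counts do not show.

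The myogenic identity of the samples was visible in the counts. All 10 myogenic markers had at least 3 counts in every sample, and the summed level of this list was 2580, 2150, 2420 and 3040 CPM in untreated replicates 1 to 4 and 1840, 1800 and 2810 CPM in BV6 replicates 2 to 4, with ACTC1, cardiac actin, the most abundant on average and DES the most abundant in untreated replicate 1. None of the 10 passed the test, with 2 higher, 8 lower and a median log2 fold change of -0.23, and 2, CHRNG and CHRNA1, had lower levels with BV6 at an unadjusted p below 0.05 (edgeR), against 8.39% of all genes in either direction. Their log2 fold changes were -0.99 and -0.27, and those of DES and MYOD1 were -0.44 and -0.45. MYH8, at 0.0890 to 2.10 CPM, had the most negative value, -1.07, with overlap between the groups but a lower level in each pair. PAX3, ACTC1, MYH3, MYOG and FOXO1 had -0.19, -0.08, -0.02, 0.03 and 0.05. With a GC correction and a replicate block, edgeR called 4 of the 10 lower, CHRNG, CHRNA1, DES and MYH8 (adjusted p 0.0264, 0.0358, 0.0282 and 0.0328), where it called 4.96% of all genes. In bulk RNA, fewer differentiated cells and less of these transcripts per cell cannot be told apart. The 10 leukocyte and NK cell markers summed to between 274 and 495 CPM. NCAM1, which rhabdomyosarcoma cells are known to express, was the most abundant of them, while the pan-leukocyte marker PTPRC lay between 0.204 and 0.801 CPM and the T cell marker CD3E between 0.0557 and 0.315 CPM. NKG7, a gene of cytotoxic lymphocytes, stood at 9.79 ± 1.60 CPM (SD, n = 4) untreated and 6.82 ± 2.52 CPM (SD, n = 3) with BV6. The 6 fibroblast markers summed to between 81.4 and 116 CPM, led by THY1, with COL1A1 at 5.05 to 14.5 CPM, LUM at 1.10 to 4.99 CPM and PDGFRA at 0.0815 to 0.214 CPM. No gene of these marker lists was at 0 in every sample, and neither of the non-muscle lists held a gene that passed the test in edgeR, while NCAM1 did, at a log2 fold change of -0.36, with the GC correction and block (adjusted p = 0.0164, edgeR).

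The libraries differed in the levels of GC-rich genes, and the cause was not tested. In BV6 replicate 3, the 629 tested genes with a GC content of 65% or more had a median log2 level of -1.17 relative to the mean of the untreated samples, against 0.02 in BV6 replicate 4 and -0.10 in BV6 replicate 2. Untreated replicate 1 stood on the other side, at 0.49. BBC3, with a GC content of 69.7%, and BAX, BAK1 and BCL2L1, at 58.9%, 58.8% and 58.2%, were the most GC-rich members, so the within-pair values of these genes are given below beside those of genes of like GC content.

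No BCL2 family member passed the test between BV6 and untreated samples, and BCL2L1 was the nearest to doing so. Of the 10 members, 9 had enough counts to be tested, and none of these 9 had an adjusted p below 0.05 by the quasi-likelihood test of edgeR (Benjamini-Hochberg over all genes), where 104 of 23124 genes (0.450%) did, 91 up-regulated and 13 down-regulated. At an unadjusted p below 0.05, edgeR counted 3 of the 9, BCL2L1 with lower and BCL2L11 and PMAIP1 with higher levels after BV6, against 8.39% of all genes. The Wald test of DESeq2 called 1 member, BCL2L1, and 408 genes (1.70%), 245 up-regulated and 163 down-regulated. Limma-voom called 0 members (0.471% of all genes), as did edgeR with no filter on low counts (0.557%) and with a replicate block on genes of known GC content (1.02%). With a replicate block for samples of the same label, edgeR called 0 members (0.943% of all genes), and it called 1, BCL2L1, with only the partnered samples in that fit (1.50%) and with a GC correction added to the block (4.96%). The share of calls that were up-regulated moved from 87.5% to 68.8% with the block (150 up-regulated and 68 down-regulated), 62.8% with paired samples only (214 and 127) and 47.1% with the GC correction and block (419 and 471). The median log2 fold change of the 9 members was -0.031, beside -0.014 for all tested genes, with 4 members higher and 5 lower. BV6 and untreated samples did not overlap for 2 members, BCL2L1 and BCL2L11, a pattern shown by 2041 of the tested genes (8.83%). The 3 pairs of samples with the same label differed in the same direction for 4 members, BCL2L1, MCL1, BCL2L11 and PMAIP1, and for 33.3% of all genes.

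**Figure D1:**
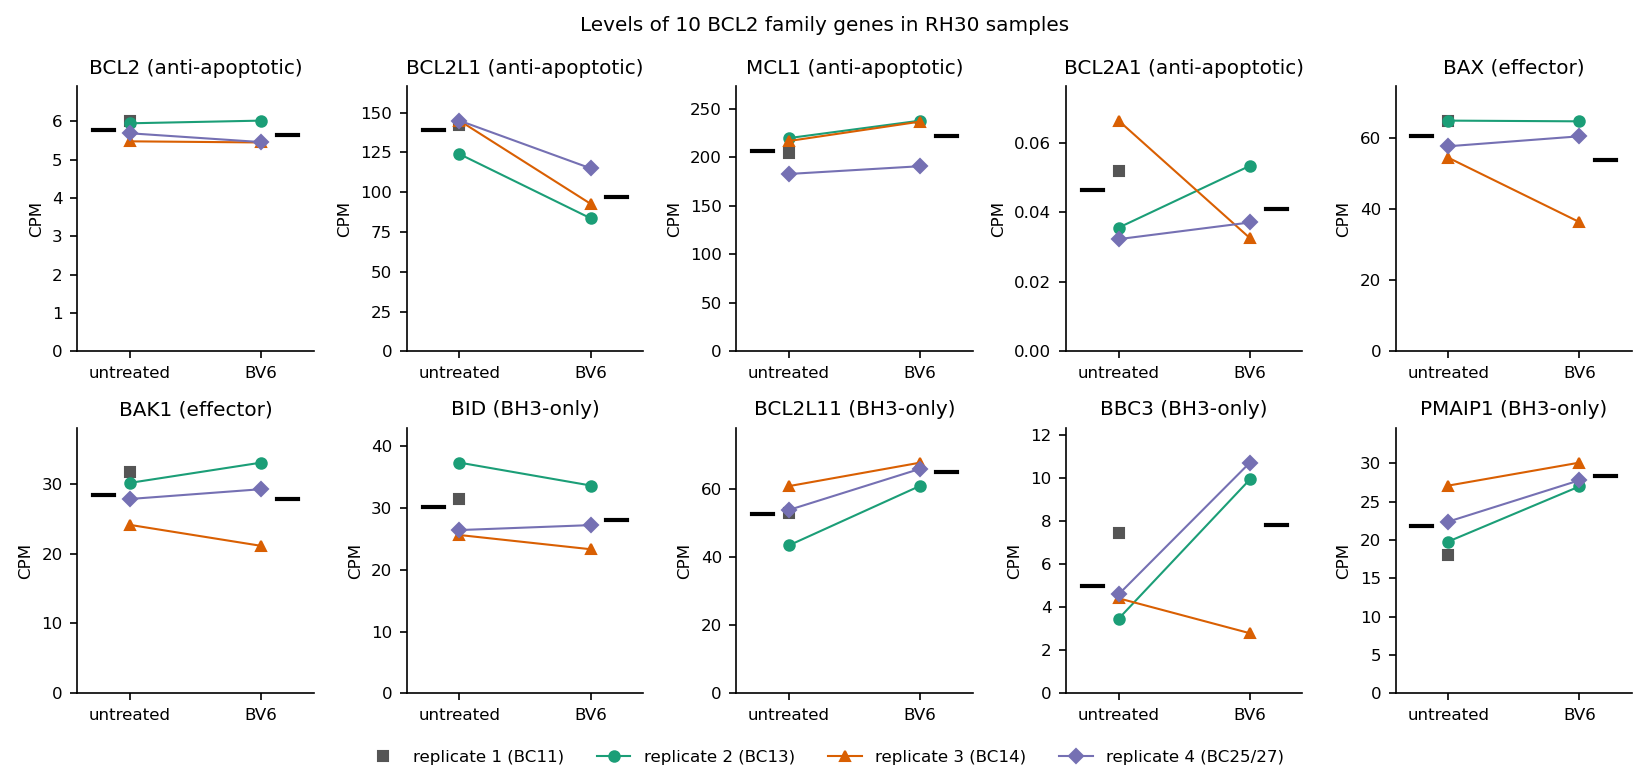
CPM of each of the 10 members in every sample (vertical axes, linear and starting at 0), untreated on the left and BV6 on the right of each panel. Symbols mark the replicate, lines join samples with the same BC label, and black bars are group means (n = 4 untreated, n = 3 BV6). All 3 BV6 samples lie below all 4 untreated samples for BCL2L1 and above them for BCL2L11, while BBC3 is higher with BV6 in replicates 2 and 4 and lower in replicate 3.

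Among the anti-apoptotic genes, BCL2L1 had the clearest difference. It lies on the minus strand of chromosome 20 (31664452 to 31723989, GRCh38) and encodes BCL-XL, which guards the outer membrane against both BAX and BAK1. Its level was 142, 124, 145 and 145 CPM in untreated replicates 1 to 4 and 83.6, 92.7 and 115 CPM in BV6 replicates 2 to 4. Every BV6 sample was thus below every untreated sample, with BV6 replicate 4 and untreated replicate 2 the closest to each other. The means were 139 ± 10.3 CPM (SD, n = 4) and 96.9 ± 16.0 CPM (SD, n = 3), a ratio of 0.697. Within the pairs, the log2 difference was -0.57, -0.65 and -0.34 for replicates 2, 3 and 4. Genes of like GC content (55% to 60%) had medians of 0.00, -0.33 and 0.09 in the same pairs, and relative to these BCL2L1 stood at -0.56, -0.32 and -0.43. The log2 fold change was -0.52 (standard error 0.128, 95% confidence interval -0.81 to -0.23), with an adjusted p of 0.190 by edgeR. The adjusted p ranged from 0.00476 to 0.498 over the alternative settings, and DESeq2 gave 0.0364. A GC correction without a block brought the log2 fold change to -0.41 and the adjusted p to 0.264 (edgeR), and the lowest value came from the GC correction with the block, where the log2 fold change was -0.46.

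**Figure D2:**
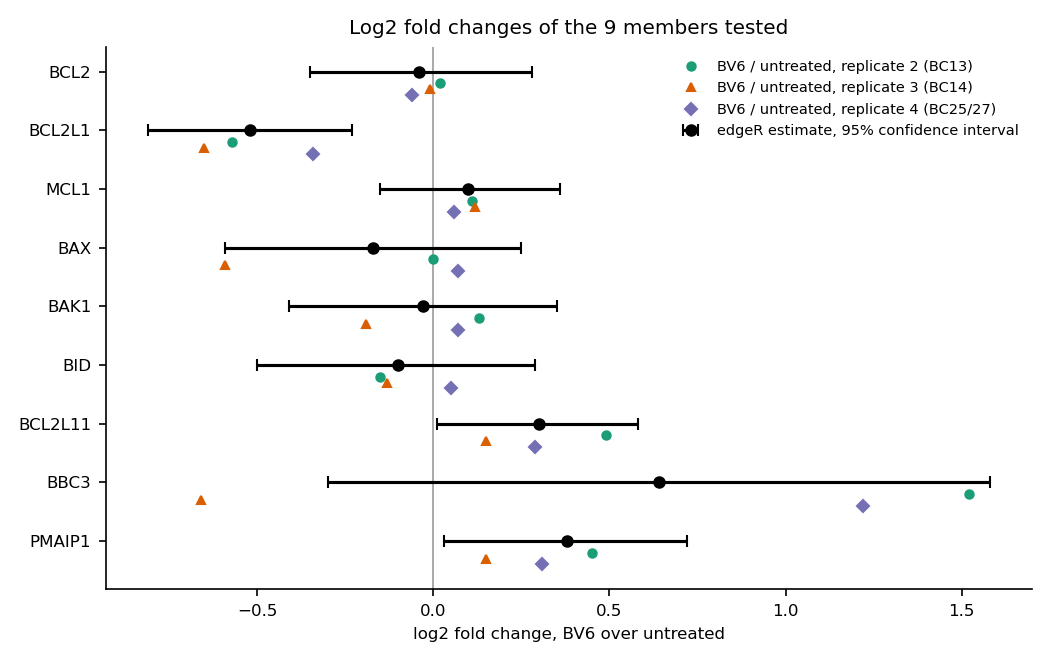
Log2 fold changes of BV6 over untreated samples for the 9 members tested (horizontal axis). Black points and bars are edgeR estimates with 95% confidence intervals from all 7 samples, and colored symbols are the log2 ratios within each pair of samples with the same label. The interval of BCL2L1 lies below 0, at -0.81 to -0.23, and those of BCL2L11 and PMAIP1 lie above 0. In this edgeR fit none of the 9 passed after adjustment over all genes, while some alternative settings called BCL2L1.

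The counts of BCL2L1 cannot be separated from those of a gene on the opposite strand. ABALON, a long non-coding RNA gene on the plus strand (chromosome 20, 31721507 to 31723409), shares 1735 exonic bases with BCL2L1, which is 41.3% of the exonic length of BCL2L1. ABALON had 52.4, 49.7, 54.1 and 55.1 CPM in the untreated and 31.8, 35.8 and 44.9 CPM in the BV6 samples. The ratio of ABALON to BCL2L1 counts stayed between 0.370 and 0.401 in all 7 libraries, with means of 0.381 ± 0.0143 (SD, n = 4) untreated and 0.386 ± 0.00525 (SD, n = 3) with BV6. The libraries were prepared to keep strand, but whether counting used it is not given in the sources used here. Reads of the overlap thus cannot be told apart. MIR3190 (plus strand) and MIR3191 (minus strand) cover nearly the same bases of chromosome 19. They had 14, 5, 21 and 15 against 14, 5, 18 and 14 counts untreated. With BV6 they had 14, 7 and 10 against 14, 6 and 9 counts. Whether the same reads were counted for both strands, there or for ABALON and BCL2L1, was not tested.

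MCL1, a short-lived protein that binds BAK1 and most BH3-only proteins, had 205, 220, 217 and 183 CPM in the untreated and 238, 237 and 191 CPM in the BV6 samples. It was slightly higher with BV6 in each pair, by 0.11, 0.12 and 0.06 on the log2 scale, but the groups overlapped and the spread between replicates was larger than that difference. Genes of like GC content (40% to 45%) had medians of 0.03, 0.11 and -0.07 in these pairs, which left MCL1 at 0.08, 0.01 and 0.13. The log2 fold change was 0.10, with a 95% confidence interval of -0.15 to 0.36 and an adjusted p of 0.833 (edgeR). It was 0.02 after a GC correction without a block, and from 0.05 without untreated replicate 4 to 0.20 without BV6 replicate 4 when a sample was left out. BCL2 itself, the founding member of the family, was low and even. It ranged from 5.48 to 6.02 CPM in the untreated and from 5.45 to 6.02 CPM in the BV6 samples, a log2 fold change of -0.04 with an interval of -0.35 to 0.28, and of -0.11 to -0.01 over the alternatives. BCL2A1, a known NF-κB target in blood cells, had 2 to 4 counts in every sample with or without BV6, at the level of 3 counts (0.0389 to 0.0557 CPM) taken here as the least detectable. It was not tested and no fold change is given. This floor covers counting error only.

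Neither effector gene passed the test, and the levels of both overlapped between the groups. BAX, which moves from the cytosol to mitochondria when activated, had 64.7, 64.8, 54.4 and 57.6 CPM in the untreated and 64.6, 36.3 and 60.4 CPM in the BV6 samples. Replicate 3 alone set the lower mean with BV6. Its pair differed by -0.59 on the log2 scale, against 0.00 and 0.07 in replicates 2 and 4, while genes of like GC content had medians of 0.00, -0.33 and 0.09 in replicates 2, 3 and 4, which left BAX at 0.00, -0.25 and -0.02. The log2 fold change of BAX was -0.17 (interval -0.59 to 0.25, adjusted p = 0.833, edgeR), and it was 0.05 without BV6 replicate 3, -0.32 without BV6 replicate 2 and -0.27 without BV6 replicate 4. BAK1, which resides in the outer membrane, ranged from 24.1 to 31.6 CPM untreated and from 21.1 to 33.0 CPM with BV6. The pairs differed by 0.13, -0.19 and 0.07 on the log2 scale, and relative to the same medians by 0.14, 0.14 and -0.01. Its log2 fold change of -0.03 had an interval of -0.41 to 0.35 and turned to 0.14 without BV6 replicate 3 and to 0.08 after a GC correction without a block.

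Of the BH3-only genes, BCL2L11 and PMAIP1 had higher levels with BV6 in all 3 pairs, by amounts that did not pass the test. BCL2L11 (plus strand of chromosome 2, 111119378 to 111168444) encodes BIM, which binds every major anti-apoptotic member and can activate BAX and BAK1. Its level was 52.9, 43.5, 60.9 and 53.9 CPM in untreated replicates 1 to 4 and 61.0, 67.8 and 66.0 CPM in BV6 replicates 2 to 4. The groups did not overlap, but the lowest BV6 sample and the highest untreated sample were almost level. The means were 52.8 ± 7.16 CPM (SD, n = 4) and 64.9 ± 3.53 CPM (SD, n = 3), and the pairs differed by 0.49, 0.15 and 0.29 on the log2 scale. Relative to the medians of genes of like GC content (45% to 50%), these differences were 0.46, 0.10 and 0.33. The log2 fold change was 0.30 (standard error 0.126, interval 0.01 to 0.58, adjusted p = 0.576, edgeR). On the opposite strand, MIR4435-2HG shares 727 bases, 10.8% of the exonic length of BCL2L11, and its own level was 97.1 ± 9.50 CPM (SD, n = 4) untreated and 95.5 ± 9.01 CPM (SD, n = 3) with BV6.

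PMAIP1 (plus strand of chromosome 18, 59899996 to 59904305) encodes NOXA, which promotes degradation of MCL1. It had 18.0, 19.8, 27.1 and 22.4 CPM in the untreated and 27.0, 30.1 and 27.8 CPM in the BV6 samples. Untreated replicate 3 was level with BV6 replicate 2, so the groups overlapped by this sample. Means were 21.8 ± 3.96 CPM (SD, n = 4) and 28.3 ± 1.59 CPM (SD, n = 3), and the pairs differed by 0.45, 0.15 and 0.31. Genes of like GC content (under 40%) had medians of 0.04, 0.13 and -0.07, so that relative to them PMAIP1 stood at 0.41, 0.02 and 0.38, level with such genes in replicate 3. The log2 fold change of 0.38 (standard error 0.153, interval 0.03 to 0.72) had an adjusted p of 0.558 by edgeR, and it was 0.24 with a GC correction and a replicate block (adjusted p = 0.305, edgeR, with a range of 0.305 to 0.991 over the alternatives).

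Because these 3 genes had the smallest p-values of the family, the bases upstream of their starts are shown, taken from RefSeq (GRCh38.p14), where 9 of the 10 members matched, all but MCL1. The strand of the gene is printed 5′ to 3′, without bases in annotated exons, and each run ends just before the start or the first such exon. Capitals mark matches, on either strand, to the letters of a κB element (GGGNNNNNCC), a cAMP response element (TGACGT) or a FOXO element (GTAAACA), and overlapping κB matches are counted separately. The BCL2L1 run is chr20:31723990-31724213 (minus strand), that of BCL2L11 is chr2:111120664-111120913 (plus strand), within the gene's span but in no exon, and that of PMAIP1 is chr18:59899746-59899995 (plus strand).
BCL2L1: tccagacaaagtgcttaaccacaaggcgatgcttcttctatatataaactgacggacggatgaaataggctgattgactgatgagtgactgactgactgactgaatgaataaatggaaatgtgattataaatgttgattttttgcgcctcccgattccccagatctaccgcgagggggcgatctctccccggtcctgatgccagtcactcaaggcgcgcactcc
BCL2L11: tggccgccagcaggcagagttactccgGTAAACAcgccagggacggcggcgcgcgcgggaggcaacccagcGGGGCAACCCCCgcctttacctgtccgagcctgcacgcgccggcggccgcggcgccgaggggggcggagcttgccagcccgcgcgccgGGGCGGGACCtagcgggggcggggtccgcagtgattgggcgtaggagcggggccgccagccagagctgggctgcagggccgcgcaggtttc
PMAIP1: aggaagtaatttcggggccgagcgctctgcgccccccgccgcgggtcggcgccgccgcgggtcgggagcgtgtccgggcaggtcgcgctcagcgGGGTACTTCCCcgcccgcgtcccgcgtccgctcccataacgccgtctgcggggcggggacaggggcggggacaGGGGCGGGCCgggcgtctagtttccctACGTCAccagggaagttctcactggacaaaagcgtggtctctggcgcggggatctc
BCL2L11 held 4 κB matches and 1 FOXO match, PMAIP1 held 3 κB matches and 1 match to the cAMP response element, and BCL2L1 held no match in this window. Among 35116 RefSeq windows of the 250 bases before a start, 54.4% held the κB letters, 7.10% the cAMP response element and 2.98% the FOXO element. A match describes these letters and is not a bound site.

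BBC3 and BID completed the BH3-only group, and for BBC3 the replicates disagreed. BBC3, on the minus strand of chromosome 19 (47220822 to 47232766), encodes PUMA, a p53 target that binds all major anti-apoptotic members. It had 7.46, 3.46, 4.41 and 4.59 CPM in the untreated and 9.92, 2.79 and 10.7 CPM in the BV6 samples. BV6 replicates 2 and 4 were the highest of all samples and BV6 replicate 3 was the lowest. The pairs differed by 1.52, -0.66 and 1.22 on the log2 scale. Genes with a GC content of 65% or more had medians of -0.23, -0.90 and 0.30 in the same pairs, and relative to these medians BBC3 stood higher in all 3, by 1.74, 0.25 and 0.92. BBC3 was more GC-rich than 99.5% of the tested genes for which GC content was known. The log2 fold change was 0.64 (standard error 0.42, interval -0.30 to 1.58, adjusted p = 0.736, edgeR). Leaving out a sample moved it to 0.33 without BV6 replicate 4, 0.43 without BV6 replicate 2 and 1.05 without BV6 replicate 3. After a GC correction without a block it was 0.91 with an adjusted p of 0.149, and over all alternatives the adjusted p lay between 0.0633 and 0.965.

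**Figure D3:**
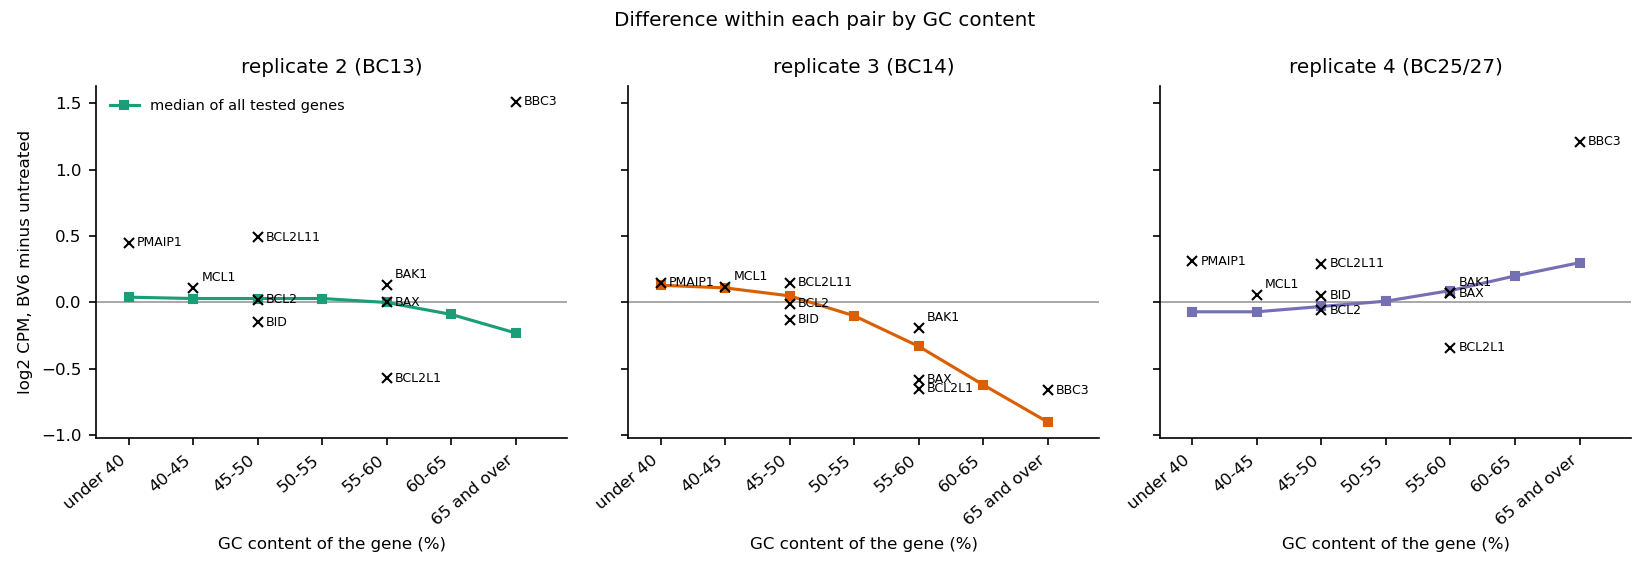
Difference in log2 CPM between BV6 and untreated samples with the same label (vertical axis) by GC content of the gene in percent (horizontal axis), a panel for each pair. Squares joined by lines are medians of all tested genes in a GC class, and crosses are members. In replicate 3 the median falls from 0.13 under 40% to -0.90 at 65% and over, and BBC3 lies above the median of its class in each panel.

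BID, the substrate of caspase-8, ranged from 25.6 to 37.3 CPM untreated and from 23.3 to 33.6 CPM with BV6. The groups overlapped over most of their range, and the log2 fold change was -0.10 (interval -0.50 to 0.29, adjusted p = 0.891, edgeR). It was 0.02 without BV6 replicate 3 and 0.01 without untreated replicate 2, and -0.25, -0.17 and -0.16 without BV6 replicate 2, untreated replicate 3 and untreated replicate 4.

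To compare members with each other, levels were divided by the length of all annotated exons of a gene. In untreated cells MCL1 and BCL2L1 led, with 33.2 ± 2.67 and 33.1 ± 2.45 CPM per kb (SD, n = 4), and did not differ beyond their spread. BAX followed at 23.3 ± 2.02, BAK1 at 12.8 ± 1.47 and PMAIP1 at 9.98 ± 1.81 CPM per kb. BCL2L11 at 7.83 ± 1.06 and BID at 6.82 ± 1.22 were within their spread of each other, and BAK1 and PMAIP1 overlapped as well. BBC3 (1.56 ± 0.543) and BCL2 (0.459 ± 0.0199) were lower by far, and BCL2A1 was at 0.0468 ± 0.0158 CPM per kb. With BV6, PMAIP1 and BAK1 exchanged places at 12.9 ± 0.725 and 12.6 ± 2.76 CPM per kb (SD, n = 3), within their spread, and the rest of the order was as in untreated cells. Divided by the longest transcript instead, BAX (44.5 ± 3.84) came before BCL2L1 (42.7 ± 3.16) in untreated cells. On that scale BID ranked 5 untreated and 7 with BV6, and PMAIP1 ranked 6 and 4. BCL2L11 ranked 7 untreated and was level with BAK1 at 12.6 CPM per kb with BV6. The order of these genes thus depends on the length used.

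**Figure D4:**
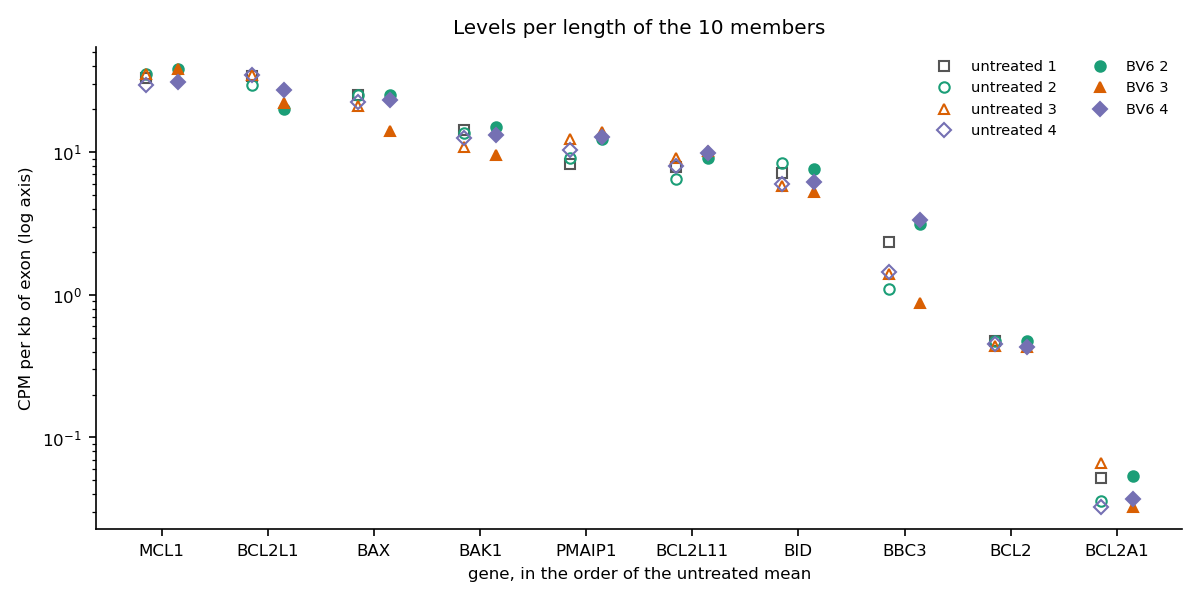
CPM per kb of exon for each member and sample (vertical axis, logarithmic), with genes ordered by their untreated mean. Open symbols are untreated and filled symbols BV6 samples, with the shape giving the replicate. The means of MCL1 and BCL2L1 are level at about 33 CPM per kb in untreated cells and stand at 35.7 and 23.1 with BV6. These genes lie closer together in BV6 replicate 4 (30.8 and 27.3) than in untreated replicate 2 (35.3 and 29.5). BCL2 and BCL2A1 lie below all others in both groups.

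Summed by role on this scale, the 4 anti-apoptotic members reached 67.3, 65.3, 70.1 and 64.5 CPM per kb in the untreated samples. With BV6 they reached 58.6, 60.6 and 58.5 CPM per kb. The 4 BH3-only members reached 25.5, 25.0, 28.6 and 25.7 CPM per kb untreated and 32.1, 30.0 and 32.0 with BV6. Neither sum overlapped between the groups, also when the longest transcript gave the length. The sum of the effectors BAX and BAK1 overlapped, at 36.2 ± 3.45 (SD, n = 4) and 33.3 ± 8.64 CPM per kb (SD, n = 3). Among single genes 8.83% did not overlap, and no such share was computed for sums of other genes. Within the anti-apoptotic sum, the mean of BCL2L1 was 33.1 untreated and 23.1 CPM per kb with BV6, and that of MCL1 33.2 and 35.7. Of the sum of these 4 members, MCL1 made up 49.7% ± 3.46 (SD, n = 4) untreated and 60.2% ± 6.70 (SD, n = 3) with BV6. BCL2L1 made up 49.6% ± 3.46 and 39.0% ± 6.73. Both shares overlapped between the groups, with MCL1 at 54.1% in untreated replicate 2 and 52.5% in BV6 replicate 4. These sums add transcripts and not proteins, and they were not tested. They cover only the 10 members and leave out other expressed genes of the family. Among these, the anti-apoptotic BCL2L2 had 62.8 ± 3.07 CPM untreated and 66.4 ± 2.39 with BV6. The effector BOK had 105 ± 23.6 and 84.8 ± 39.9 CPM. The BH3-only BMF had 18.8 ± 9.87 and 17.8 ± 5.70 CPM, and BAD 6.33 ± 2.47 and 4.64 ± 2.18. Sums with them were not computed, so the shares and the lack of overlap hold for the listed members alone.

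Ratios within a library do not depend on its depth and set opposing members against each other, but they do carry the differences between libraries in GC-rich genes. The pairs of genes were chosen after their values were seen. BCL2L11 counts were 0.373, 0.351, 0.419 and 0.372 of BCL2L1 counts in the untreated and 0.730, 0.732 and 0.576 in the BV6 samples. The untreated libraries were close together and all BV6 libraries lay above them, with means of 0.379 ± 0.0286 (SD, n = 4) and 0.679 ± 0.0893 (SD, n = 3), a ratio of 1.79. PMAIP1 to BCL2L1 gave 0.157 ± 0.0243 untreated and 0.297 ± 0.0466 with BV6, also without overlap, and MCL1 to BCL2L1 gave 1.50 ± 0.212 and 2.36 ± 0.612, with overlap. For the pair NOXA and MCL1, whose proteins bind each other, the ratio of counts was 0.106 ± 0.0200 and 0.129 ± 0.0161 and the groups overlapped. They also overlapped for BCL2L11 to MCL1 (0.257 ± 0.0424 and 0.296 ± 0.0450) and for BBC3, BAX and BAK1 to BCL2L1 (0.0357 ± 0.0114 and 0.0807 ± 0.0456, 0.438 ± 0.0669 and 0.564 ± 0.194, 0.206 ± 0.0342 and 0.293 ± 0.0901). Ratios to BCL2L1 did not overlap between the groups for 2 of the 6 members set against it, and for 36.4% of 22975 tested genes set against it in the same way, so the members were close to the share of all genes. In all 3 pairs, 5 of these 6 ratios were higher with BV6, with BBC3 the exception (0.991-fold in replicate 3), as were 70.8% of all genes. Both ratios to MCL1 were higher in each pair, though by only 1.02-fold in replicate 3, as were 8.74% of all genes. In replicate 3, the ratios of BCL2L11 and PMAIP1 to BCL2L1 differed 1.75- and 1.74-fold between BV6 and untreated samples, and the medians of genes of like GC content alone gave 1.31- and 1.38-fold. Relative to those medians the difference was 2.02-, 1.34- and 1.69-fold for BCL2L11 and 1.96-, 1.26- and 1.75-fold for PMAIP1 in replicates 2, 3 and 4. All ratios to BCL2L1 share its lower counts with BV6, and with 4 against 3 samples an exact two-sided permutation test cannot give a p below 0.0571.

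**Figure D5:**
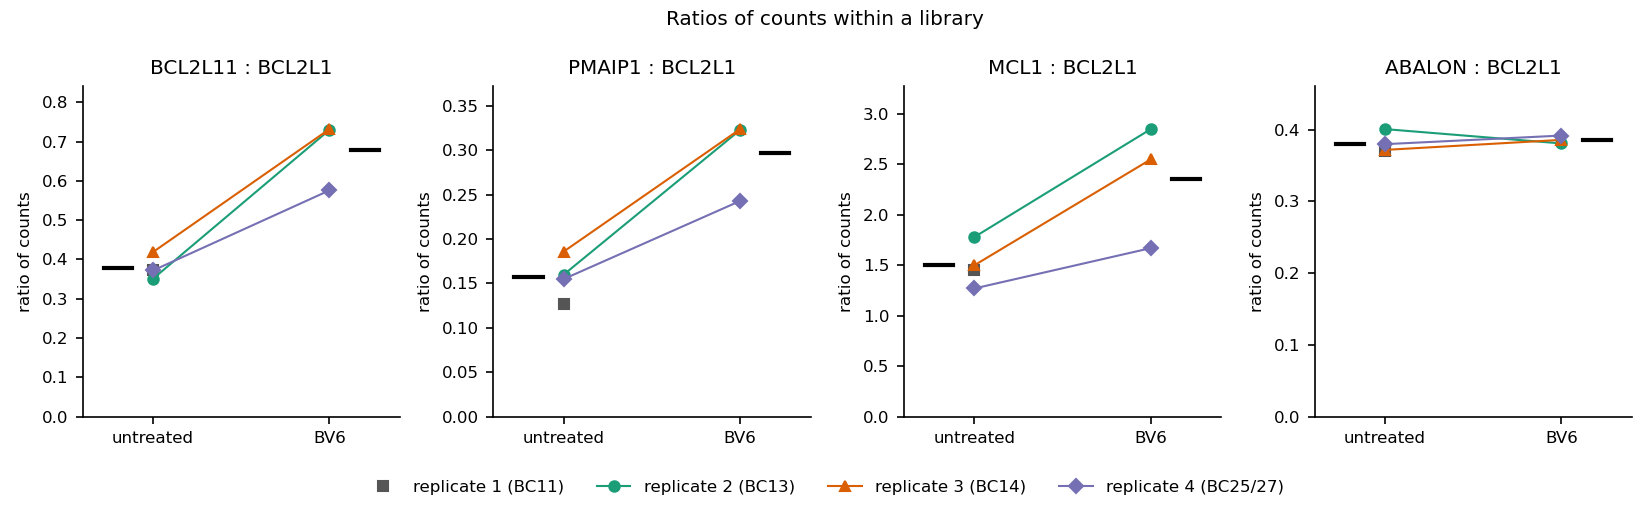
Ratios of counts of BCL2L11, PMAIP1, MCL1 and ABALON to those of BCL2L1 within each library (vertical axes, from 0), untreated on the left and BV6 on the right, with lines joining samples of the same label and black bars for means. BV6 samples lie above all untreated samples in the panels of BCL2L11 and PMAIP1, and the ratio of ABALON stays between 0.370 and 0.401.

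In the rest of the family and at the mitochondria, no gene passed the test in edgeR. Of 14 other BCL2 family genes, 11 were tested and none passed, where 0.450% of all genes did (edgeR). At an unadjusted p below 0.05 there were 0, against 8.39% of all genes (edgeR), and the median log2 fold change was 0.03. The 4 with the smallest p were BCL2L12 (40.5 ± 7.33 to 32.3 ± 9.33 CPM), BNIP3L, a mitophagy receptor (87.8 ± 5.18 to 96.5 ± 2.68), HRK, a BH3-only gene near the floor (0.111 ± 0.0891 to 0.224 ± 0.0609), and BAD (6.33 ± 2.47 to 4.64 ± 2.18). All 17 genes that act at or after the mitochondrial pore were tested and none passed, again with 0 at an unadjusted p below 0.05 and a median of -0.01. DIABLO, which encodes Smac, had 40.1 ± 1.57 CPM untreated (SD, n = 4) and 45.9 ± 1.79 CPM with BV6 (SD, n = 3), without overlap, and its log2 fold change was 0.19. APAF1, the scaffold of the apoptosome, had 46.7 ± 2.72 and 41.2 ± 1.60 CPM, also without overlap, and a log2 fold change of -0.18. DIABLO and APAF1 were the 2 of the 17 genes without overlap, a pattern shown by 8.83% of all genes. XIAP and HTRA2 stood at 0.23 and -0.20. Of 8 genes for the turnover of MCL1 and NOXA proteins none passed, and their log2 fold changes were led by UBE2K at 0.12 and FBXW7 at 0.11, with USP9X at 0.06 and MARCH5 at -0.05.

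Upstream of BID, 11 genes of the death receptor pathway and of BID cleavage, 4 of them receptors, were tested. Of the 11, 8 had higher and 3 lower levels, and none passed (edgeR, where 0.450% of all genes did). TNFRSF10B, which encodes the TRAIL receptor DR5, had 110, 120, 95.9 and 110 CPM in the untreated and 162, 139 and 151 CPM in the BV6 samples. CFLAR, which encodes the caspase-8 inhibitor FLIP, had 8.63, 7.86, 10.6 and 9.35 CPM and 13.3, 12.2 and 14.3 CPM. TNFRSF10B and CFLAR, 2 of the 11 genes, did not overlap between the groups, a pattern shown by 8.83% of all genes. Their log2 fold changes were 0.47 and 0.54 with adjusted p of 0.156 and 0.237 (edgeR). DESeq2 called CFLAR (adjusted p = 0.0489), and edgeR called TNFRSF10B with a replicate block on paired samples only (0.0341), on genes of known GC content (0.0490) and with a GC correction (0.00380), but not with the block alone (0.0510). TNFRSF10A, at 0.170 ± 0.100 and 0.311 ± 0.148 CPM, was close to the floor, and TNFRSF1A had a log2 fold change of -0.17.

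Among 16 regulators and targets of p53, 1 passed the test, where 0.450% of all genes did (edgeR). GADD45A, a stress gene that ATF4 and FOXO factors also regulate, had 132, 119, 133 and 119 CPM untreated and 187, 194 and 207 CPM with BV6. It rose by 0.64 on the log2 scale with an adjusted p of 0.0249 (edgeR), and all BV6 samples were above all untreated samples. Leaving out any 1 of the 7 samples ended this call, with adjusted p (edgeR) from 0.0512 without BV6 replicate 3 to 0.112 without BV6 replicate 4 and a log2 fold change of 0.60 to 0.68. SESN2 (0.57), GDF15 (0.72) and TP53INP1 (0.45) had higher means with BV6 but overlapped between the groups, and the list's median was 0.07. SESN2 and GDF15 were called by edgeR with the GC correction and block (adjusted p 0.0272 and 0.0297), which called 4.96% of all genes. Of 9 transcription factors and cofactors known to act on BH3-only genes, none passed, 3 were higher and 1 lower at an unadjusted p below 0.05 (edgeR, 8.39% of all genes), and the median was 0.17. DDIT3, which encodes the stress factor CHOP, had 87.8, 59.1, 126 and 94.3 CPM untreated and 141, 172 and 189 CPM with BV6, a log2 fold change of 0.87 with an adjusted p of 0.201 (edgeR). DDIT3 was called with the replicate block (log2 fold change 0.90, adjusted p = 0.0431, edgeR), which made it 1 of the 9, as well as by DESeq2 (0.0291), with no filter on low counts (0.0209, edgeR), with paired samples only (0.0145) and with the GC correction and block (0.00896). FOXO3 had 86.1 ± 7.16 and 116 ± 4.42 CPM, a log2 fold change of 0.43 with an adjusted p of 0.168 (edgeR), and FOXO3 and ATF4 were called only with the GC correction and block (0.0163 and 0.0264), a setting that called 4.96% of all genes. ATF4 (0.36) overlapped between the groups, and E2F1 (-0.36) was lower without overlap.

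Of 11 genes of the NF-κB pathway and its known targets, a list written with the study's results known, 7 rose in the same BV6 libraries. The median log2 fold change was 1.54. BIRC3 went from 2.44 ± 1.57 to 70.4 ± 27.4 CPM, BIRC2 from 66.1 ± 10.3 to 192 ± 78.9, TRAF1 from 12.1 ± 3.05 to 145 ± 76.2 and CCL5 from 0.101 ± 0.0423 to 2.66 ± 1.05 CPM (SD, n = 4 and n = 3). NFKBIA (2.17), NFKB2 (1.67) and TNFAIP3 (0.86) rose as well, where edgeR gave adjusted p of 0.0116, 0.0110 and 0.0145, and NFKB1 and RELB had log2 fold changes of 0.60 and 0.90 with adjusted p of 0.288 and 0.556. With the replicate block edgeR called 9 of the 11, NFKB1 (0.0454) and RELB (0.0322) in addition. It called 0.943% of all genes with the block and 0.450% without it. RELA had 66.2, 59.7, 49.6 and 50.6 CPM untreated and 70.1, 46.0 and 63.3 CPM with BV6, a log2 fold change of 0.08 (adjusted p = 0.919, edgeR) that was -0.04 without BV6 replicate 2. ICAM1, at 0.0713 to 0.375 CPM, overlapped between the groups as well (log2 fold change 0.63, adjusted p = 0.768, edgeR). CCL5, TRAF1 and BIRC3 were called in all 18 alternatives. Without untreated replicate 4, the adjusted p by edgeR was 0.0536 for NFKB2, 0.0579 for NFKBIA, 0.0536 for TNFAIP3 and 0.101 for BIRC2. Their log2 fold changes in that fit were 1.65, 2.14, 0.80 and 1.55, against 1.67, 2.17, 0.86 and 1.54 with all samples. The call of BIRC2 also ended without untreated replicates 1, 2 or 3 (0.0892, 0.0558 and 0.0993, edgeR), and that of TNFAIP3 without untreated replicates 1 or 3 or BV6 replicate 2 (0.0606, 0.0775 and 0.0581, edgeR). BCL2L1 and BCL2A1 are both described as NF-κB targets in other cells. In these libraries BCL2L1 was lower with BV6 without passing the test (adjusted p = 0.190, edgeR). BCL2A1 was barely detectable in every sample, untreated or BV6, at 2 to 4 counts.

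The genes whose log2 CPM followed BCL2L1 most closely over the 7 samples, among 23123 compared, were LSP1 (Pearson r = 0.997), ABALON (0.992), TEX26-AS1 (0.992), RAP2B (0.989) and LINC00545 (0.988). LSP1 had 22.6, 13.3, 22.1 and 21.6 CPM in the untreated and 4.67, 5.74 and 11.5 CPM in the BV6 samples, a log2 fold change of -1.45. RAP2B had the smallest difference of the 5, at -0.23. These are the highest of many correlations over few samples that also share depth and base composition, and ABALON shares exonic bases with BCL2L1.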

How the data were processed

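RNA of RH30 cells was sequenced from 7 samples, 4 untreated and 3 treated with BV6. The authors deposited raw counts per gene without normalization, made from paired-end libraries of poly(A) RNA that keep strand. Per their processing notes, reads were mapped to GRCh38 with STAR 2.6.1d. They counted reads with a union of the isoforms of each gene. The value 2 is commoner than 1 in each library, so mates may have been counted separately.

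Genes were tested with edgeR 4.0.16 in R 4.3.3 (filterByExpr with a minimum count of 10, TMM, quasi-likelihood F test on condition, Benjamini-Hochberg adjustment over all genes tested, called below 0.05). The code was tested on simulated counts. Coordinates, exon lengths and GC content came from GENCODE release 44, matched for 37180 of the 57189 genes, and promoters from RefSeq. The members and lists were chosen with earlier results of these data known. Named were all members, called genes of each list (up to 8) or else the genes with the smallest p until 4 were named, and the 5 genes closest to BCL2L1. Other genes were named after their values were seen. Alternatives were a replicate block, DESeq2 1.42.0, RLE, no filter, limma-voom (limma 3.58.1), a GC correction (loess, span 0.5), leaving out samples and, after seeing the data, halved counts and further GC fits.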

Additional observations from a re-analysis of the deposited data

Results flagged for a closer look

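In 5 of 59 genes examined, 1 of the 4 untreated samples lay far from the other 3, judged by its gap to the nearest sample as a share of the group's range. Chance gives about 1 in 20 such groups. The tally is no test against that rate, because LSP1 was chosen for following BCL2L1 and its value restates that of BCL2L1. BCL2L1 had 124 CPM in untreated replicate 2 and 142 to 145 CPM in the others (share 0.834), and LSP1, which followed it across samples, had 13.3 CPM there and 21.6 to 22.6 CPM in the others (share 0.892). Without that sample the log2 fold change of BCL2L1 was -0.57.

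Untreated replicate 1 stood apart for the other 3 genes. BCL2L12 had 51.4 CPM in it and 35.7 to 37.7 CPM in the other untreated samples (share 0.871), MYOD1 had 474 CPM and 293 to 311 CPM (share 0.899), and PTPRC had 0.753 CPM and 0.226 to 0.285 CPM (share 0.889). In BV6 replicate 2, PTPRC had 0.801 CPM. This library also had the highest total count. Relative to the mean of the untreated samples, its median log2 level was 0.16 for genes in the GC class of BCL2L12 (55% to 60%) and 0.49 in that of MYOD1 (65% or more), the highest of the 7 libraries, and their part in these 2 values was not tested. In the class of PTPRC (under 40%) it was -0.15, the lowest of the 7, while the level of PTPRC was raised.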

How the results depend on the processing

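Over 18 alternatives, the log2 fold changes of BCL2, BCL2L1, MCL1, BCL2L11, BBC3 and PMAIP1 had the same sign throughout. The 10 sign changes among 162 member estimates concerned values near 0, and their cause was not tested. They were BAX without BV6 replicate 3 (0.05, with a range of -0.32 to 0.05 over the 7 fits that left out a sample), BID without BV6 replicate 3 or untreated replicate 2 (range -0.25 to 0.02), and BAK1 (range -0.17 to 0.14), which was also 0.01 with the replicate block, 0.01 with paired samples only, 0.0011 with the block on genes of known GC content, and 0.07 and 0.08 after GC correction with and without the block. BCL2L1 was not called in any of the 7 fits without a block that left out a sample (adjusted p 0.125 to 0.498, edgeR).

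The number of genes called moved from 104 to 408 with DESeq2, 242 without a filter, 177 with a GC correction on genes of known GC content (95 on these genes without it), and 38 to 89 when a sample was left out, where fewer samples were fitted. For the other changes the cause was not tested. RLE factors (105), limma-voom (109) and halved counts (111) stayed close. Members called went from 0 to 1, BCL2L1, with DESeq2, with paired samples only and with the GC correction plus block, and were 0 in each fit without a block that left out a sample.

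Samples with the same label deviated from their group means together in replicates 2 and 3 (correlation across genes 0.462 and 0.438) but hardly in replicate 4 (0.085). With the untreated mean taken over the 3 partnered samples alone, the values were 0.515, 0.322 and 0.197. BV6 replicate 4 was closer to untreated replicate 1 (0.278) either way, so the pairing rests on the labels and is unsettled for replicate 4. With the replicate block edgeR called 218 genes, with paired samples only 341, on genes of known GC content 182, and with GC correction as well 890. The adjusted p of BCL2L1 was 0.0570, 0.0368, 0.0619 and 0.00476 in these fits (edgeR), and the block alone called no member. Among the listed genes, the block alone added DDIT3, NFKB1 and RELB and changed no other call.

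The members' median log2 fold change stayed between -0.077 and 0.060. Depth limits BCL2A1, at 2 to 4 counts, and HRK.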
